A study of Mus musculus with 6 samples.

Results

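Expression of 10 genes that mark the endothelium, the cell layer lining blood and lymph vessels, was followed across mRNA sequencing libraries of mouse epididymal white adipose tissue, the fat pad beside the epididymis. The genes were chosen by symbol as transcripts of endothelial junction and surface proteins and their secreted or enzymatic companions: Cdh5, Cldn5, Pecam1, Esam, Robo4, Emcn, Egfl7, Vwf, Eng and Nos3. All 10 were found among the 45777 genes of the deposited table, and all 10 were among the 17820 genes that passed the filter on low counts. There were 6 libraries from C57BL/6 mice fasted for 24 h. In the 3 libraries labelled WT the mice carried loxP-flanked alleles of Pak4, a serine/threonine kinase, and no Cre transgene is named. In the 3 libraries labelled KO the mice carried the same floxed alleles and Adipoq-Cre, which drives Cre recombinase from the adiponectin promoter of adipocytes, so endothelium is not the cell type the transgene is meant to recombine. The sources used here give no age, and the labels number the replicates without naming separate animals, so a p-value here speaks only of the scatter among 6 libraries, which may be technical.

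Endothelial cells hold to each other through adherens junctions, built on the cadherin encoded by Cdh5, and through tight junctions, in which the claudin encoded by Cldn5 seals the cleft. Pecam1 and Esam encode immunoglobulin-type adhesion proteins of the same contacts. In fat the capillary endothelium is the barrier that fatty acids, insulin and lipoproteins meet between blood and adipocyte, and it is also where blood cells and vascular tone are controlled through proteins such as von Willebrand factor (Vwf) and endothelial nitric oxide synthase (Nos3).

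The labels name adipocytes as the cell type, while RNA was extracted from excised tissue, and all 10 endothelial genes were detected in all 6 libraries. Total counts ran from 62854465 to 72005658 per library. The counts of the 10 genes ran from 268, for Vwf in a library labelled KO, to 5686, for Pecam1 in a library labelled WT, so counting error alone (the inverse square root of the count) was 6.11% at the lowest and 1.33% at the highest. Pak4 itself was not lower under the KO label. It had 5.03 to 5.84 CPM (counts per 1000000 counts, scaled by TMM, the trimmed mean of M values) under the WT label and 9.06 to 12.1 CPM under the KO label, a log2 fold change of 0.96 ± 0.14 (SE; adjusted p 0.0898 in edgeR). Reads of Pak4 were not examined by exon, so its gene total does not show whether the floxed part was lost. Since Pak4 was not lower under the KO label, each direction below is one between labels, not genotypes. On the leading principal component, which held 44.1% of the variance, library KO 1 sat between the other libraries of both labels. It was at -1.85 against -53.5 to -12.3 for the WT label and 40.9 and 53.5 for KO 2 and KO 3. Results are therefore also given without it. That choice came from these same data and drops the KO library nearest to the WT label, so it favours calls. Over all genes, edgeR calls rose from 3 lower and 0 higher to 637 and 379. A call made only without KO 1 is therefore not independent support.

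Promoter sequence, from RefSeq on GRCm38.p6, was on hand for 5 of the 10 genes, and 4 stretches on the plus strand are shown because they belong to the pair of these genes with the largest difference between labels (Cldn5 and Robo4), to the gene nearest to 0 (Emcn) and to Egfl7. Each runs 5′ to 3′ and ends before the first annotated exon it meets. Capitals mark GGAA or its reverse complement TTCC, the core letters of sites for ETS factors, a transcription factor family of endothelium. Cldn5 is shown at chr16:18776597-18776846, Robo4 at chr9:37401722-37401896, Emcn at chr3:137340828-137341066 and Egfl7, which has 3 start sites in the table, at chr2:26583615-26583863, upstream of the second of them.
Cldn5: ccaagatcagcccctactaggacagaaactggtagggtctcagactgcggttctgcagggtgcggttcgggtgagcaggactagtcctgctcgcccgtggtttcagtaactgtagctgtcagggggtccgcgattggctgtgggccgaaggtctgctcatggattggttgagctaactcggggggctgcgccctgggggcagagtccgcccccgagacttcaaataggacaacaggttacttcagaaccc
Robo4: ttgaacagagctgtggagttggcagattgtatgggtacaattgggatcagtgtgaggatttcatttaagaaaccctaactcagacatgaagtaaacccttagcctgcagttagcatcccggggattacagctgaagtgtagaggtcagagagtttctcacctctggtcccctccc
Emcn: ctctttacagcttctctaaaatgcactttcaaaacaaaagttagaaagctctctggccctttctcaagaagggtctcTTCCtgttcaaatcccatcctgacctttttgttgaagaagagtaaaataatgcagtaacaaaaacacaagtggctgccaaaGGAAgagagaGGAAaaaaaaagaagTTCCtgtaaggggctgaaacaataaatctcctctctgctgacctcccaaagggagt
Egfl7: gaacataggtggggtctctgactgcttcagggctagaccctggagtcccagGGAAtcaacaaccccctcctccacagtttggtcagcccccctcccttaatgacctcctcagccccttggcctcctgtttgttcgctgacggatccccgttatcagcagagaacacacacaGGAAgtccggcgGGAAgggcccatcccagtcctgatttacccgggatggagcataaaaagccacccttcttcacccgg
In windows of 300 bases (250 before and 50 after the start), 96% of all 32851 promoters held GGAA on either strand, with a median of 3 matches. The Cldn5 window held 0 matches, the Robo4 window 4 (none of them in the stretch shown), the Emcn window 6, the Eng window 4 and the Egfl7 window above 4. The longer ETS motif ACNGGAAG was in 8.15% of all windows and, among these genes, in those of Emcn and Egfl7, both without a large difference between labels. The FOX:ETS letters AACAGGAA (which overlap the ETS core) were in 2.65% of all windows. They were also met in Emcn and in a window of Egfl7 other than the one shown. The SOX letters AACAAT, in 10.7% of windows, were met in Emcn, and the KLF letters CACCC, in 57.5%, in Cldn5, Egfl7, Eng and Robo4. The FOX letters GTAAACA, in 3.65%, and the GATA letters AGATAA, in 11.2%, were met in none of the windows of these genes. These matches were read on both strands and describe letters, not bound sites.

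Per length, the genes spanned a wide range of levels. By the deposited FPKM over all 6 libraries (mean ± SD, n = 6), Cldn5 was at 20.7 ± 7.51, Egfl7 at 16.8 ± 3.18 and Pecam1 at 16.7 ± 3.15. Esam followed at 13.3 ± 3.36, Eng at 11.3 ± 1.36, Emcn at 9.61 ± 2.2 and Cdh5 at 8.16 ± 2.21. The ranges of neighbours in this order overlapped down to Nos3 (5.79 ± 1.27), so their order is not settled, although Cdh5 exceeded Nos3 in 6 of 6 libraries. Robo4 (2.43 ± 0.783) and Vwf (0.472 ± 0.0797) each lay apart from the gene above them. Vwf, the large clotting protein that endothelium of bigger vessels stores, was thus the scarcest of the 10 per length.

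Under the KO label, Cldn5, Robo4 and Cdh5 stood lowest against the WT label, at 49.9%, 45.3% and 39.1% below it by the fitted fold change, while Emcn lay near 0 and Esam stood on the other side of 0. Of the 10 genes, 9 had a log2 fold change below 0, as had 47.9% of all genes tested, and the median was -0.33 against 0.02 for all genes. The 10 genes were chosen with earlier results of these data known, so the shares of all genes are no independent yardstick for them. None of the 10 passed edgeR's quasi-likelihood test at a Benjamini-Hochberg adjusted p of 0.05, a threshold met by 0.0168% of all genes towards lower and 0% towards higher values. At an unadjusted p under 0.05 there were 5 lower genes (Cldn5, Robo4, Cdh5, Vwf and Pecam1) and 0 higher, where the background was 9.71% and 9.66%. The groups did not overlap, all below, for 4 of the 10 (Cldn5, Robo4, Cdh5 and Vwf), against 12.5% of all genes towards lower and 13.7% towards higher values. DESeq2 called 3 of the 10 lower (Cldn5, Robo4 and Cdh5; background 4.27%) and 0 higher (background 2.89%), limma voom called 0 in either direction (background 0.0224% and 0.00561%), and edgeR without KO 1 called the same 3 lower (background 3.49%) and 0 higher (background 2.08%). In bulk tissue, fewer endothelial cells and less RNA of a gene per cell cannot be told apart.

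**Figure D1:**
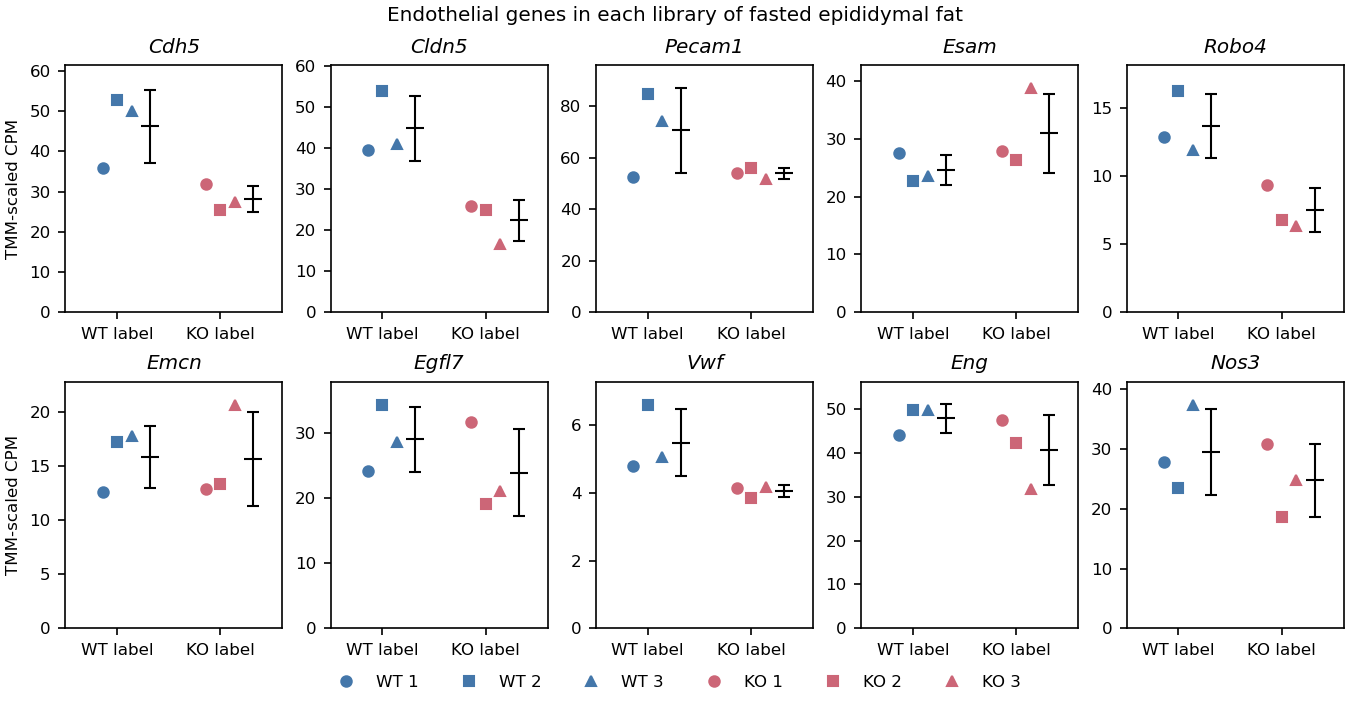
TMM-scaled CPM of the 10 endothelial genes (vertical axes, from 0) in each library, by label, with replicate numbers as symbols and mean ± SD (n = 3) as black bars. For Cldn5, Robo4, Cdh5 and Vwf every library labelled KO lies below every library labelled WT, while for the other 6 genes the labels overlap.

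Cldn5 and Cdh5, the tight junction claudin and the adherens junction cadherin, were both lower in every library labelled KO. Cldn5 had 39.6, 53.9 and 41.0 CPM in WT 1, 2 and 3 and 25.8, 24.9 and 16.6 CPM in KO 1, 2 and 3. The lowest WT library was thus well above the highest KO library, and KO 3 lay apart from the other KO libraries. The log2 fold change was -1.00 ± 0.19 (adjusted p 0.120 in edgeR, 3.48e-04 in DESeq2, and 0.0430 in edgeR without KO 1, at -1.11 ± 0.22). Cdh5 had 35.9, 52.8 and 50.1 CPM in WT 1, 2 and 3 and 31.8, 25.4 and 27.4 CPM in KO 1, 2 and 3. Here WT 1 and KO 1 came close to each other. The log2 fold change was -0.71 ± 0.16 (adjusted p 0.136 in edgeR, 0.00473 in DESeq2, and 0.0499 in edgeR without KO 1, at -0.81 ± 0.17). Cldn5 lies on chromosome 16 at 18776847 to 18778262, with all of its 1416 bases exonic, and Cdh5 on chromosome 8 at 104101625 to 104144511 (GENCODE M21, GRCm38).

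Pecam1 and Esam, the adhesion proteins of the immunoglobulin family, did not share this pattern. Pecam1, which blood leukocytes and platelets also express, had 52.5, 84.8 and 74.4 CPM under the WT label and 53.9, 55.9 and 51.8 CPM under the KO label. WT 1 lay among the KO libraries, while the KO libraries were nearly level with each other, with a coefficient of variation of 3.78% against 23.4% under the WT label. The log2 fold change was -0.39 ± 0.16 (adjusted p 0.253 in edgeR, -0.23 without WT 2). Esam, a tight junction adhesion protein of endothelium and platelets, had 27.5, 22.7 and 23.6 CPM under the WT label and 27.9, 26.3 and 38.8 CPM under the KO label. Only KO 3 stood clearly above the rest, and WT 1 exceeded KO 2. Its log2 fold change of 0.33 ± 0.16 (adjusted p 0.291 in edgeR) shrank to 0.14 without KO 3. By library size alone and by the deposited FPKM and TPM, Esam too had groups that did not overlap, on the higher side, whereas the same 4 genes were lower on every one of these scales.

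Robo4, Emcn and Eng are surface proteins with different tasks, and only Robo4 separated the labels. Robo4, the endothelial roundabout receptor that stabilises vessels, had 12.9, 16.3 and 11.9 CPM under the WT label and 9.36, 6.77 and 6.36 CPM under the KO label. All KO libraries were below all WT libraries, with KO 1 nearest to them. The log2 fold change was -0.87 ± 0.19 (adjusted p 0.133 in edgeR, 0.00253 in DESeq2, and 0.0293 in edgeR without KO 1, at -1.06 ± 0.17). Emcn, the mucin-like endomucin of capillaries and veins, had 12.6, 17.3 and 17.8 CPM under the WT label and 12.9, 13.4 and 20.7 CPM under the KO label. The highest library carried the KO label, the lowest the WT label, and the labels overlapped. The log2 fold change of -0.02 ± 0.21 (adjusted p 0.970 in edgeR) changed sign with library size scaling alone (0.10) or without KO 1 (0.10), KO 2, WT 2 or WT 3. Eng, endoglin, the co-receptor for BMP9 on endothelium that stromal cells and macrophages also carry, had 44.1, 49.7 and 49.8 CPM under the WT label and 47.6, 42.3 and 31.9 CPM under the KO label. KO 1 exceeded WT 1 and KO 3 was the lowest by a wide gap, with a log2 fold change of -0.24 ± 0.15 (adjusted p 0.395 in edgeR).

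Among the secreted proteins and the enzyme, Vwf separated the labels by a small margin and Egfl7 and Nos3 did not. Vwf had 4.80, 6.60 and 5.04 CPM under the WT label and 4.13, 3.85 and 4.17 CPM under the KO label. The KO libraries varied by 4.41%, within the counting error of their 268 to 311 counts. The log2 fold change was -0.44 ± 0.16 (adjusted p 0.215 in edgeR), and it was -0.28 without WT 2, the highest library. Egfl7, a secreted matrix-bound protein of vessels, had 24.2, 34.2 and 28.6 CPM under the WT label and 31.6, 19.0 and 21.1 CPM under the KO label. KO 1 was second only to WT 2, so the log2 fold change of -0.28 ± 0.21 became -0.53 ± 0.16 without KO 1 (adjusted p 0.480 and 0.0857 in edgeR). Nos3 had 27.8, 23.4 and 37.3 CPM under the WT label and 30.9, 18.7 and 24.8 CPM under the KO label. The labels interleaved, with a log2 fold change of -0.25 ± 0.23 that was -0.44 ± 0.22 without KO 1 (adjusted p 0.561 and 0.244 in edgeR).

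**Figure D2:**
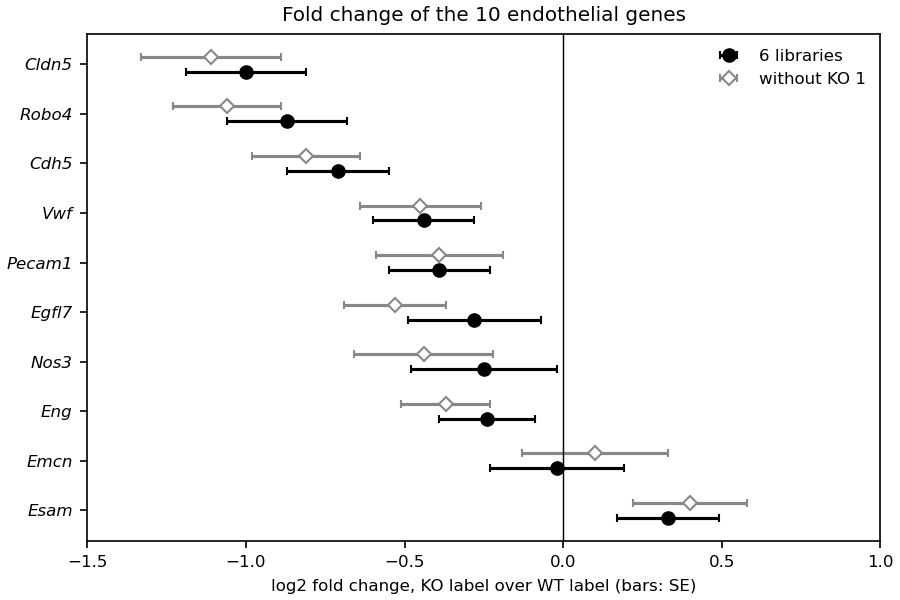
Log2 fold change of the libraries labelled KO over those labelled WT (horizontal axis, bars are SE) for each of the 10 genes, from all 6 libraries (filled) and without KO 1 (open). Cldn5, Robo4 and Cdh5 lie farthest to the left, Emcn lies near 0 and Esam to its right, and leaving out KO 1 moved Egfl7 from -0.28 to -0.53.

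Some counts could hold reads of neighbours. On the same strand, where strand-aware counting would not separate them, Egfl7 shares 264 exonic bases with the protein-coding gene Gm20532, which was not analysed here. The other genes named here lie on the opposite strand, and the sources used here do not say whether counting was strand-aware. On chromosome 5 (24364810 to 24384474) Nos3 shares 294 exonic bases with Atg9b on the opposite strand, which had 0.460 ± 0.272 and 0.912 ± 0.0704 CPM (SD, n = 3) under the WT and KO labels, and 1040 with the antisense transcript Gm15587, which was not analysed here. On chromosome 2, Egfl7 (26580014 to 26593120) shares 64 exonic bases with Agpat2, an acyltransferase gene of adipocytes on the opposite strand that had 191 ± 39.6 and 208 ± 55.9 CPM, and Eng (32646595 to 32682669) shares 61 with Fpgs, at 10.4 ± 1.17 and 11.7 ± 1.19 CPM. Egfl7 also hosts the endothelial microRNA miR-126, shown because its locus lies within the counted gene, with the seed (bases 2 to 8) in capitals.
miR-126a-3p: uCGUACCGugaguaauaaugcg
It lies at chr2:26591402-26591423 on the plus strand (RefSeq, GRCm38.p6), and gene totals of an mRNA library do not measure the mature microRNA.

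The 10 genes did not order the libraries alike. WT 2 was the highest library for 6 of them, WT 3 for Eng and Nos3, and KO 3 for Esam and Emcn. KO 2 was the lowest for 4 (Cdh5, Egfl7, Vwf and Nos3) and KO 3 for another 4 (Cldn5, Pecam1, Robo4 and Eng), while Esam was lowest in WT 2 and Emcn in WT 1. KO 3 was therefore at once the highest library for Esam and Emcn and the lowest for Cldn5. The count of Cldn5 over that of Esam was 1.44, 2.38 and 1.74 under the WT label and 0.925, 0.949 and 0.429 under the KO label, a pair chosen after its values were seen. Over Pecam1, Cldn5 stood at 0.754, 0.635 and 0.551 under the WT label and 0.478, 0.446 and 0.321 under the KO label, and Cdh5 at 0.684, 0.622 and 0.674 and then 0.590, 0.455 and 0.528. Robo4 over Pecam1 stood at 0.245, 0.193 and 0.160 under the WT label and 0.174, 0.121 and 0.123 under the KO label. The ratios of Cldn5 and Cdh5 to Pecam1 thus separated the labels, whereas that of Robo4 to Pecam1 overlapped, with KO 1 above WT 3. The ratio of Cldn5 to Cdh5 overlapped too, at 0.980 ± 0.147 and 0.799 ± 0.187 (SD, n = 3). These ratios compare libraries, since the genes differ in length. None of these pairs was planned, and the numerators Cldn5, Cdh5 and Robo4 were already the genes lowest under the KO label. The ratios are therefore not independent support.

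Set against 29 other endothelial transcripts, Cldn5, Robo4 and Cdh5 remained lower under the KO label. The summed counts of that list were 43166, 52298 and 45642 under the WT label and 44249, 46939 and 56353 under the KO label. Per 1000 of these counts, Cldn5 had 56.2, 69.1 and 55.1 under the WT label and 39.2, 37.0 and 22.0 under the KO label, a log2 ratio of the means of -0.88. Robo4 had 18.3, 20.9 and 16.0 and then 14.2, 10.1 and 8.41 (-0.75), and Cdh5 had 50.9, 67.7 and 67.4 and then 48.4, 37.7 and 36.2 (-0.60). For these 3 genes the groups did not overlap, and the same held with capillary markers as the denominator (-0.69, -0.56 and -0.41) and against the mean log2 CPM of the 29 genes (-0.70, -0.57 and -0.40). That mean was chosen after the data were seen and rests on the same 29 genes. Kdr is in both the capillary list and the 29 genes, so the denominators are not independent of each other. Vwf, at -0.33 with groups apart, overlapped with the other denominators (-0.12 and -0.11). Pecam1, Egfl7, Eng, Nos3 and Emcn overlapped with every denominator. Esam had 39.0, 29.0 and 31.7 per 1000 under the WT label and 42.4, 39.0 and 51.3 under the KO label, a log2 ratio of 0.41 with WT 1 and KO 2 nearly level, and its groups were apart, on the higher side, with the other denominators (0.62 with each). With 3 libraries against 3 an exact two-sided permutation test cannot give a p under 0.1, so these ratios are given as values. Cd34, which fibroblasts also express, made up 26.8% of the scaled counts of the 29 genes and Cd36, which adipocytes also express, 88.0% of those of the capillary list.

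**Figure D3:**
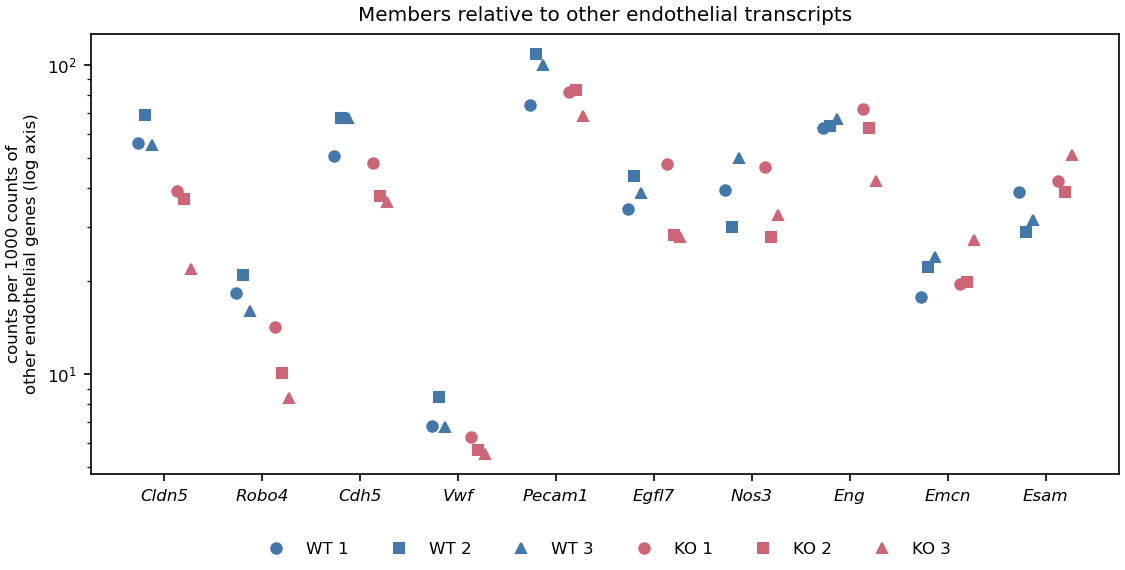
Counts of each of the 10 genes per 1000 summed counts of 29 other endothelial genes (vertical log axis) in each library, by label colour and replicate symbol. The KO symbols lie below the WT symbols for Cldn5, Robo4, Cdh5 and Vwf and overlap with them for the other genes.

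Those 29 other endothelial genes leaned the same way as the 10. Of them 24 lay below 0, 11 had groups apart on the lower side and 1 on the higher, and the median log2 fold change was -0.32. In edgeR 0 were called, and in DESeq2 8 lower and 1 higher. Of all genes, 47.9% lay below 0, and 12.5% and 13.7% had groups apart on the lower and higher side. DESeq2 called 4.27% of all genes lower and 2.89% higher. These shares are the background for the counts of every list below. The lists too were chosen with earlier results of these data known, so that background is not an independent yardstick. Notch4, an endothelial Notch receptor, had 9.20 ± 1.34 and 4.81 ± 0.482 CPM under the WT and KO labels (-0.94 ± 0.15), and Ramp2, the partner of the adrenomedullin receptor, 31.9 ± 1.64 and 20.2 ± 1.13 CPM (-0.66 ± 0.09). Ushbp1 stood at -0.59 ± 0.14, while Clec14a, an endothelial C-type lectin, lay on the other side at 0.55 ± 0.13. Their summed CPM overlapped between labels, at 705 to 780 and 658 to 756. The summed CPM of the 10 genes did not, at 282 to 362 under the WT label and 237 to 276 under the KO label. That was not particular to the 10 genes. Sums were also apart, on the lower side, for partners of the junction proteins (2270 to 2470 and 1950 to 2140 CPM). The same held for capillary markers (5110 to 6580 and 4400 to 4650 CPM) and venous markers (355 to 383 and 207 to 282 CPM). Single genes that adipocytes also express dominated both sums, with Cd36 at 88.0% of the capillary and Lrg1 at 78.1% of the venous sum. The median log2 fold change of the venous list was 0.00. Arterial and lymphatic sums overlapped.

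The partners of the junction proteins also lay mostly below 0, with a median nearer to it. They are not a separate set, since Icam2, Ptprb and Rasip1 are also among the other endothelial genes above. Further lists share genes with those too, such as Kdr with the capillary markers and Notch4 with the Notch genes. Of 21 such genes 20 were tested (Ocln was below the filter), with 16 below 0, 9 with groups apart on the lower side, 0 on the higher and a median of -0.18. In edgeR 0 were called and in DESeq2 5, all lower. Of all genes, 12.5% had groups apart on the lower side and 4.27% were lower in DESeq2. Magi1, a scaffold of endothelial junctions, had 20.6 ± 2.92 and 10.3 ± 2.06 CPM (-1.00 ± 0.17, adjusted p 0.115 in edgeR). Rasip1, which couples RAP1 to junctions, stood at -0.83 ± 0.20, and Heg1 and Ptprb, the latter a phosphatase that acts on the Cdh5 cadherin, each at -0.44 ± 0.12. The median of this list was -0.06 with library size alone, which moved the median of all genes by 0.12.

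Regulators and pathway partners of the other members had medians near 0, with single genes on either side. Summed CPM, which abundant genes dominate, was lower and apart for transcription factors (682 to 736 and 558 to 621). It was also lower for nitric oxide genes (7760 to 9150 and 5570 to 7340). For genes of Vwf storage and haemostasis it was higher and apart (800 to 915 and 984 to 1010). The sums of the BMP9, Slit and Robo, and Notch lists overlapped. Endothelial transcription factors (22 tested, 13 below 0) had a median of -0.10. Their groups were apart for 4 lower and 1 higher, against 12.5% and 13.7% of all genes. Epas1 stood at -0.48 ± 0.12, Ets1 at -0.31 ± 0.10, Meox2 at -0.56 ± 0.19 and Lyl1 at 0.39 ± 0.14. For endoglin, the BMP9 pathway (14 of 15 tested, with Bmp10 at 0 counts in all libraries) had a median of -0.03, and its receptor gene Acvrl1 stood at -0.21 ± 0.10, Bmp6 at -0.36 ± 0.14, Smad5 at 0.19 ± 0.08 and Id2 at 0.38 ± 0.21. For Nos3, 20 genes of nitric oxide signalling had a median of -0.05, with the caveolar genes Cav2 (-0.44 ± 0.13), Cavin2 (-0.42 ± 0.16) and Cav1 (-0.39 ± 0.15) on the lower side and Gucy1a1, a subunit of the nitric oxide receptor, at 0.71 ± 0.16. Caveolae are also abundant in adipocytes. For Robo4, 7 of 8 Slit, Robo and Unc5b pathway genes were tested, with log2 fold changes from -0.29 for Robo1 to 0.19 for Slit2 and a median of 0.03.

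For Vwf, 14 of 15 genes of its storage and of haemostasis had a median of 0.02. Thbd, the thrombin receptor that starts protein C activation, had 162 ± 46.8 and 275 ± 58.0 CPM under the WT and KO labels (0.76 ± 0.23), and Procr stood at 0.50 ± 0.18, Plat at 0.35 ± 0.12 and Selp at 0.87 ± 0.33. For Egfl7, which is known to act on Notch, 11 Notch pathway genes had a median of 0.04. Heyl, a Notch target of mural cells, had 15.7 ± 3.39 and 4.17 ± 1.99 CPM (-1.92 ± 0.34, adjusted p 0.119 in edgeR and 1.19e-06 in DESeq2), Nrarp stood at -0.74 ± 0.22 and the arterial ligand Dll4 at -0.93 ± 0.28. None of the genes of these lists was called in edgeR, and DESeq2 called 1 transcription factor (Epas1, lower), 0 BMP9 pathway genes, 3 nitric oxide genes (Cav1 and Cav2 lower, Gucy1a1 higher), 0 Slit and Robo genes, Thbd higher, and Notch4, Heyl and Nrarp lower. Over all genes, DESeq2 called 4.27% lower and 2.89% higher. With library size alone, the medians of the transcription factors, the nitric oxide genes and the Notch genes were 0.02, 0.07 and 0.16.

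Of the endothelial subtypes, capillary markers had the lowest median. All 10 capillary genes lay below 0, 6 with groups apart, at a median of -0.48, and 4 were lower in DESeq2. The shares of all genes were 47.9% below 0, 12.5% apart on the lower side and 4.27% lower in DESeq2. Aqp1, a water channel, had 91.9 ± 3.09 and 53.1 ± 3.50 CPM (-0.79 ± 0.09), Cd300lg stood at -0.52 ± 0.13, Kdr, the main VEGF receptor, at -0.43 ± 0.12 and Btnl9 at -0.58 ± 0.18. Arterial markers (10 tested, 9 below 0) had a median of -0.15, with Sema3g at -0.60 ± 0.14 and Sox17 at -0.40 ± 0.18. Venous markers went both ways, with 3 of 6 tested genes below 0 and a median of 0.00: Nr2f2, the venous transcription factor, had 13.0 ± 0.293 and 23.0 ± 2.51 CPM (0.82 ± 0.11), and Lrg1, which adipocytes also express, 306 ± 19.0 and 179 ± 46.4 CPM (-0.78 ± 0.19). Ackr1 and Sele were below the filter. Lymphatic markers (9 tested, 7 below 0) had a median of -0.17, with Flt4 at -0.61 ± 0.24, Itga9 at -0.25 ± 0.10 and Lyve1, which macrophages also express, at 0.21 ± 0.13. In edgeR 0 genes of these subtype lists were called, and differences between the lists were not tested.

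**Figure D4:**
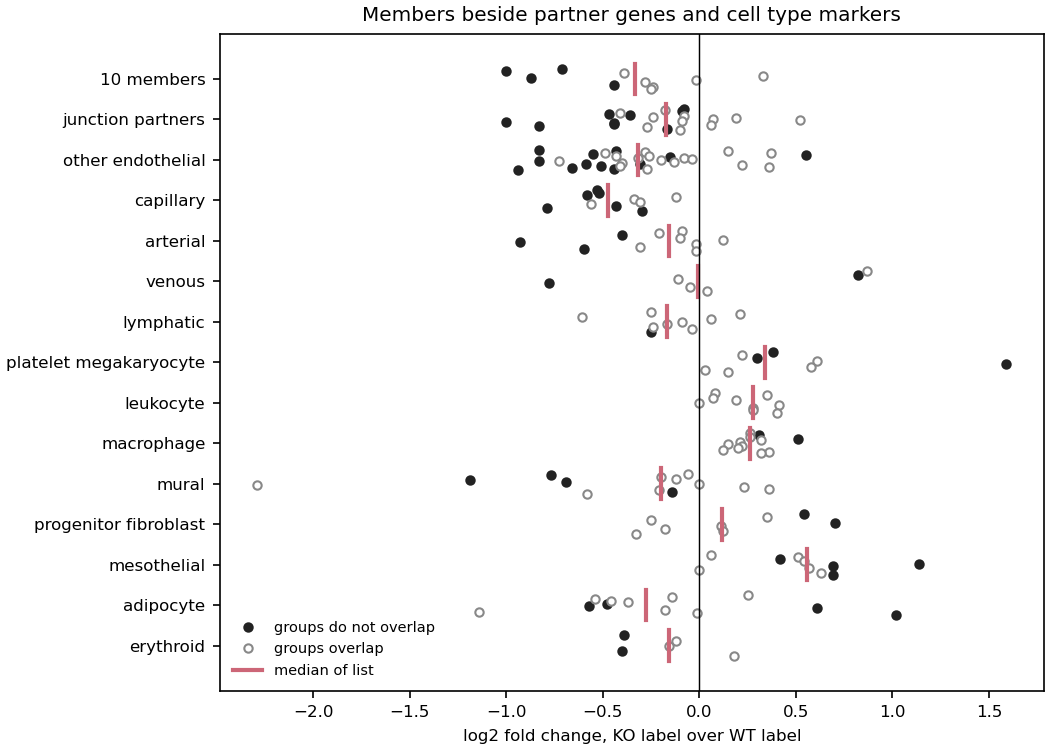
Log2 fold change (horizontal axis) of each tested gene in the set of 10 and in lists of partner genes and cell type markers, filled where the groups do not overlap, with the list's median as a bar. The medians of the 10 genes (-0.33), of other endothelial genes (-0.32) and of capillary markers (-0.48) lie to the left of 0, and those of platelet, leukocyte, macrophage and mesothelial markers to its right.

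Markers of other cell types also leaned to one side or the other between the labels. Of their summed levels only that of platelet and megakaryocyte markers had groups apart. The part of these cell types in the values of the 10 genes was not tested. Platelet and megakaryocyte markers, which matter for Vwf, Pecam1 and Esam, had 8 of 10 genes tested and all 8 above 0, with a median of 0.34 and a summed level of 62.6 to 66.5 CPM under the WT label and 76.7 to 84.1 CPM under the KO label. Pf4, which macrophages also express, made up 77.3% of that sum (0.38 ± 0.08), while the defining genes Gp1ba and Itga2b stood at 0.0688 ± 0.0114 and 2.18 ± 0.156 CPM under the WT label and 0.210 ± 0.0737 and 2.68 ± 0.310 CPM under the KO label. Leukocyte markers, which matter for Pecam1, had 8 of 9 genes above 0 (median 0.28), with sums of 355 to 452 and 406 to 523 CPM that overlapped. Macrophage markers, which matter for Eng, had 12 of 12 above 0 (median 0.26), with sums of 2050 to 2510 and 2200 to 2950 CPM.

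Mural cells, the smooth muscle cells and pericytes around vessels, had 11 of 13 markers below 0 (median -0.20), with Rgs5 at 135 ± 24.6 and 79.2 ± 2.49 CPM (-0.77 ± 0.14) and Notch3 at -0.69 ± 0.15. Their summed level was 388, 1720 and 728 CPM in WT 1, 2 and 3 and 537, 269 and 278 CPM in KO 1, 2 and 3, so WT 2, the highest library for 6 of the 10 genes, was also the highest here, with Acta2 making up 59.7% of the sum. Without WT 2 the log2 fold changes of Cldn5, Robo4 and Cdh5 were -0.84, -0.72 and -0.61. Progenitor and fibroblast markers had 5 of 8 above 0 (median 0.11, sums of 2440 to 2600 and 2550 to 3970 CPM), with Pdgfra at 0.54 ± 0.14 and Dcn at 0.70 ± 0.21. Mesothelial markers had 9 of 10 above 0 (median 0.55, sums of 569 to 928 and 906 to 1140 CPM), with Wt1 at 1.14 ± 0.29. Adipocyte markers had 9 of 12 below 0 (median -0.27, sums of 64100 to 69400 and 61400 to 64800 CPM), with Pparg at 0.61 ± 0.14 and Pnpla2 at -0.48 ± 0.14, and erythroid markers 4 of 5 (median -0.16, sums of 4570 to 5270 and 3170 to 5120 CPM). Of 5 markers of epididymal epithelium, 4 were at 0 counts in all libraries and Crisp1 did not exceed 0.188 CPM. Among these lists edgeR called 0 genes.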

How the data were processed

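Total RNA of excised epididymal fat was extracted with Trizol and 1 µg per sample was made into libraries with a TruSeq stranded mRNA kit, per the labels' protocols. Build mm10 and the tools HISAT2 2.1.0, StringTie 2.1.3b, Bowtie2 2.3.4.1, bcl2fastq 2.20.0 and FastQC 0.11.7 come from the submitters' processing notes, which give no roles. The authors deposited whole read counts per gene, not normalized, which entered every test. The deposited FPKM (fragments scaled by transcript length and depth, per the file headers) gave levels between genes, and the deposited TPM served as a check of overlap.

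Genes passing filterByExpr (minimum count 10, minimum total 15) were TMM-scaled and fitted by label in edgeR 4.0.16 (R 4.3.3; robust glmQLFit, two-sided glmQLFTest, Benjamini-Hochberg over 17820 genes, threshold 0.05). Standard errors are the fold change over the square root of F. DESeq2 1.42.0, limma 3.58.1 (voom), other scalings, no filter, a replicate block and leaving out each library were alternatives. Each test was run on simulated counts with the same spread for all genes and planted changes larger than that of any of the 10 genes. That check does not bear on why the tests differ in their calls here. The mean log2 CPM of 29 genes as a denominator and the overlap by FPKM and TPM were chosen after seeing the data. No pair of libraries agreed within sampling noise (lowest chi-square 46.9 per degree of freedom). Coordinates and overlaps are from GENCODE M21 and promoters from RefSeq, both GRCm38. Named beside the 10 genes are up to 4 genes of smallest p in each of 21 lists, 5 genes of nearest profile and annotated overlaps. The genes and lists were chosen with earlier results of these data known.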

Additional observations from a re-analysis of the deposited data

How the results depend on the processing

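Over 12 alternatives, 109 of 120 fold changes of the 10 genes kept their direction and side of the threshold. DESeq2 called 3 of the 10 lower, 687 of all genes lower and 465 higher, and Pak4 (0.95). Leaving out 1 library at a time gave 0 to 3 of the 10 called lower (3 without KO 1), -0.45 to -0.25 for their median, 1 to 637 of all genes lower and 0 to 379 higher (637 and 379 without KO 1), and 0.85 to 1.06 for Pak4, which passed without KO 1. Library size alone, limma voom and no filter on low counts each called 1 gene higher.

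Emcn, at -0.02, stood at 0.10 with library size alone and ran from -0.27 to 0.10 with 1 library left out. Ephb4 stood at 0.01 with library size alone. With 1 library left out Agpat2 ran from -0.09 to 0.30, Hbb-bs from -0.27 to 0.08, Hbb-bt from -0.32 to 0.03, Robo1 from -0.51 to 0.10 and Prox1 from -0.54 to 0.22. None of these was called, and the cause was not tested.

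Same-numbered libraries did not deviate together (correlations of -0.170, -0.0219 and 0.0476), so the numbers were not taken as pairs. With the replicate block 1 gene of all was called lower and 0 of the 10, with adjusted p of 0.283 for Cldn5 in edgeR. For the 10 genes at these depths the spread between libraries, not counting error, sets the precision, except for Vwf under the KO label.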

Other observations

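The genes whose profile over the 6 libraries lay nearest to the mean profile of the 10 endothelial genes were not endothelial markers of the lists. The mean centred log2 CPM of the 10 was 0.02, 0.33 and 0.23 in WT 1, 2 and 3 and -0.05, -0.31 and -0.23 in KO 1, 2 and 3. Among 12753 other genes with a mean of at least 1 CPM, the smallest root mean square differences from it, in log2 units, were those of Cpt1a (0.0312), which admits fatty acids to mitochondria, Oxct1 (0.0461), an enzyme of ketone body use, Hdlbp (0.0465), Mttp (0.0475), a lipid transfer protein, and H2bc8 (0.0478), a histone gene. The median difference over all compared genes was 0.287. These are the nearest of many genes over 6 libraries and are given as a description.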
